A study of Mus musculus with 4 samples.

Results

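The small RNAs of 1 WT liver and 1 Miwi2-/- liver were compared gene by gene within the annotated 3' UTRs of protein-coding genes. The deposited lists hold distinct small RNA sequences, each written 1 time without a read count, 4273 for WT liver and 560 for Miwi2-/- liver. A sequence was included when its single best placement on NCBIM37, the Ensembl name of mm9, had at most 1 mismatch and when at least 50% of it lay in a 3' UTR of GENCODE M1. Sequences at the Mir21 gene, which lies in the 3' UTR of Vmp1, were left out. The comparison then held 3415 WT sequences and 423 Miwi2-/- sequences, together 3801 different sequences in 495 genes, out of 7390 different sequences in the 4 lists of the series.

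Both mice were adults labelled C57BL/6. The Miwi2-/- animal is labelled a MIWI2 KO, and the WT animal was its only control. Age beyond adult, sex and the design of the allele are not given in the sources used here. The WT list held 4 sequences of Ddx3y, a gene of chromosome Y, and the Miwi2-/- list 0, which is too few to tell the sex of the Miwi2-/- animal. A difference in sex or age between the livers cannot be told apart from the genotype. Small RNAs came from frozen liver tissue, were selected by size on a gel at about 24 to 31 nt by the sample labels (the study's methods give a wider range), and sequenced in 1 library per genotype. Neither library has a replicate, so every difference given here is between 2 libraries. No p-value is given, and the intervals are exact 95% intervals that cover counting error only. Distinct sequences of a gene can overlap and are not independent, which the intervals do not cover. A change in the kinds of cells in the tissue and a change in the small RNAs of each cell cannot be told apart in whole liver.

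MIWI2, the product of Piwil4, is a Piwi protein known from the fetal testis, where it is guided by piRNAs to transposons and takes part in their silencing and DNA methylation. piRNAs are cut from single-stranded precursors without Dicer. MicroRNAs, in contrast, are cut from both arms of a hairpin, and their 5' ends are precise because these bases select the target. Small RNAs can also be taken from the 3' UTRs of mRNAs, so that each gene contributes many different sequences spread along its 3' UTR. Piwil4 itself had 0 sequences in the lists, and they hence carry no check of its loss.

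The libraries differed in depth. By the study's read accounting, the uniquely aligned distinct sequences of the Miwi2-/- liver were 0.206 of those of the WT liver, and the uniquely aligned reads were 0.129. The first ratio was used here as the depth ratio. A depth-scaled ratio of 1 means that a gene had as many Miwi2-/- sequences as its WT sequences multiplied by 0.206. Summed over all genes, this ratio was 0.602 (0.543 to 0.666), or -0.73 on the log2 scale, and -0.06 on the log2 scale with the ratio of reads. Values of single genes are therefore given beside 0.602. The lists were restricted by the authors to the 3' UTR clusters of the WT liver, so a gene with small RNAs in the Miwi2-/- liver alone could hardly enter. That 0 of the 495 genes were such genes follows from this choice. Because clusters entered by their WT sequences, this choice can also lower 0.602 and the ratios of single genes, by an amount that was not tested.

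Few exact sequences were listed in both livers, and several of them lay in stacks of sequences on a common 5' end or adjacent 5' ends, as in Mbnl1, Dnmt3a and AI464131. The sequences below carry this result. Each is given in the direction of the gene, with T for U, and capitals mark a base that differs from NCBIM37. The first set is the stack of Mbnl1, which encodes a regulator of alternative splicing, at chr3:60431251-60431275 on the plus strand, with its middle start 971 bases into a 3' UTR of 3390 nt. The Miwi2-/- list held 7 sequences here, on 3 adjacent 5' positions, and 6 of them are shown.
Mbnl1, 24 nt, both livers and WT spleen: atatgccatttctgagacacaata
Mbnl1, 22 nt, both livers and both spleens: tatgccatttctgagacacaaA
Mbnl1, 23 nt, both livers and both spleens: tatgccatttctgagacacaata
Mbnl1, 21 nt, Miwi2-/- liver and both spleens: tatgccatttctgagacacaa
Mbnl1, 24 nt, Miwi2-/- liver and both spleens: tatgccatttctgagacacaatTa
Mbnl1, 20 nt, Miwi2-/- liver alone: atgccatttctgagacacaa

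The second set is the stack of Dnmt3a, which encodes a de novo DNA methyltransferase, at chr12:3911926-3911950 on the plus strand, with all 5 sequences of the Miwi2-/- list.
Dnmt3a, 20 nt, both livers and both spleens: actacaaggtcttcaggaac
Dnmt3a, 19 nt, both livers and both spleens: ctacaaggtcttcaggaac
Dnmt3a, 24 nt, both livers: ctacaaggtcttcaggaactgtAa
Dnmt3a, 21 nt, Miwi2-/- liver alone: actacaaggtcttcaggaact
Dnmt3a, 20 nt, Miwi2-/- liver and WT spleen: ctacaaggtcttcaggaact

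The next set holds the 3 Miwi2-/- sequences of AI464131 at chr4:41443376-41443398 on the minus strand, and the exact shared sequence of Tnrc6b at chr15:80770478-80770501 on the plus strand. Tnrc6b encodes a partner of Argonaute proteins in silencing by microRNAs.
AI464131, 22 nt, both livers and WT spleen: actgagttaggttgaacttggA
AI464131, 23 nt, both livers and WT spleen: aactgagttaggttgaacttggA
AI464131, 21 nt, Miwi2-/- liver and WT spleen: actgagttaggttgaacttgA
Tnrc6b, 24 nt, both livers and both spleens: gacagaggaggagagagatcctgA

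The bases of the Tnrc6b sequence between its first and its last matched a microRNA in RefSeq (build GRCm38.p6), mmu-miR-5113, which is given here in RNA letters with its seed, bases 2 to 8, in capitals.
mmu-miR-5113: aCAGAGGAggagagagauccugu

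In the search of all members against the RefSeq hairpins, by their first 20 bases, Tnrc6b was the only gene with a match, with 6 WT sequences and 1 Miwi2-/- sequence. The Mbnl1, Dnmt3a and AI464131 stacks had no match in that table.

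The last set shows shared sequences of plasma protein genes and of Errfi1, each of which lay among many other sequences of the same 3' UTR. They come from chr5:90905500-90905524 and chr5:90905580-90905606 in Alb (albumin), chr3:82846246-82846269 in Fgb (a fibrinogen chain), chr16:22899487-22899509 in Ahsg (fetuin-A) and chr4:150241941-150241963 in Errfi1, which encodes a feedback inhibitor of the EGF receptor.
Alb, 25 nt: aaaagacatgaagactcaggactca
Alb, 27 nt: ttgacttcttgtctctgtgctgcaatC
Alb, 26 nt: tgacttcttgtctctgtgctgcaatC
Fgb, 24 nt: ttattggaattttctttgatacaA
Ahsg, 23 nt: ttctcaaataagaaggctctgaA
Errfi1, 23 nt: tgtattcagaacaattcaaacaa

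Of the 423 Miwi2-/- sequences, 37 (8.75%, 6.23 to 11.9) were also in the WT liver list, base for base. These were 1.08% of the 3415 WT sequences. A further step away from identity, 77 Miwi2-/- sequences (18.2%, 14.6 to 22.2) shared their 5' position with a WT sequence, and 91 (21.5%, 17.7 to 25.7) shared their 3' position after removal of a terminal A that did not match the genome. An overlap of at least 1 base with a WT sequence of the same gene was found for 236 (55.8%, 50.9 to 60.6). The other Miwi2-/- sequences lay in the same genes as WT sequences but on bases that no listed WT sequence covered. Read from the WT side, 17.1% of the WT sequences overlapped a Miwi2-/- sequence.

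The same Miwi2-/- liver sequences were searched in the WT spleen list to show how much of this sharing was between livers. There, 20 (4.73%, 2.91 to 7.21) were found base for base, 34 (8.04%, 5.63 to 11.1) by their 5' position, and 45 (10.6%, 7.87 to 14.0) by overlap. Only 70 of the 423 sequences lay in a gene with WT spleen sequences, and among these 70 the exact share was 28.6% (18.4 to 40.6). Most Miwi2-/- liver sequences lay in genes without any listed WT spleen sequence, and the WT spleen list keeps to clusters of the spleen. For comparison, the spleen pair had 41 exact matches among 261 Miwi2-/- sequences (15.7%, 11.5 to 20.7), with 55.2% overlapping. The overlap share was near that of the liver, while the exact share was higher. This difference was not tested, and the depths of the tissues differ. At Mir21, 77 of 96 Miwi2-/- liver sequences (80.2%) were in the WT liver list.

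**Figure D1:**
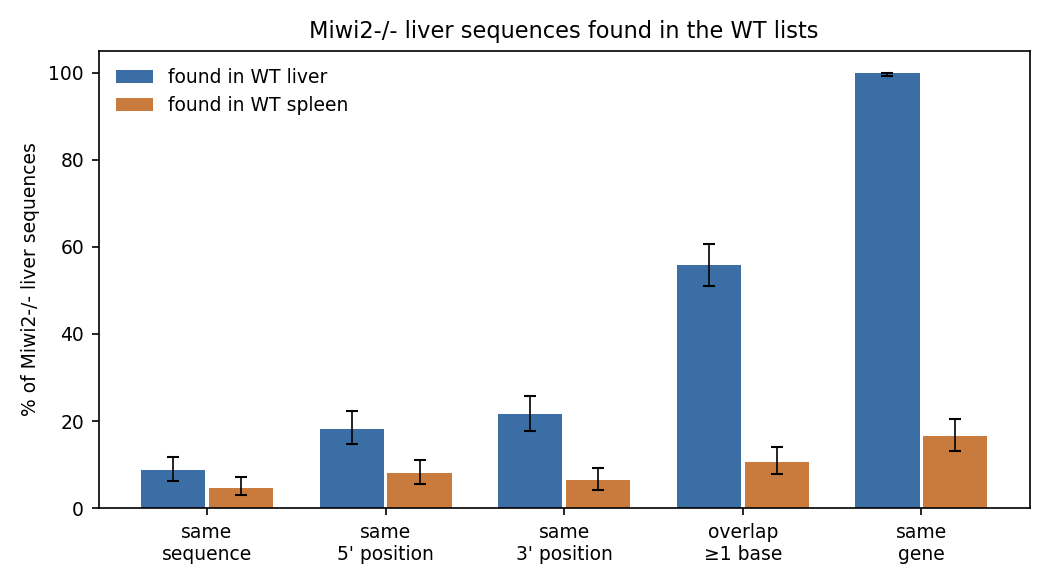
Share of the 423 Miwi2-/- liver sequences (vertical axis, %) that were found in the WT liver list (blue) or the WT spleen list (orange) by sequence, 5' position, 3' position, overlap or gene. Bars start at 0 and the lines are exact 95% intervals for counting error. In WT liver the share rises from 8.75% for the exact sequence to 55.8% for overlap and 100% for the gene, and in WT spleen it goes from 4.73% to 16.5%.

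The 37 exact sequences lay in 23 genes, and 7 genes held 2 or more of them, 21 in all. Fam53c and 4933403F05Rik held 4 each, Mbnl1, Dnmt3a and Alb held 3 each, and AI464131 and Stard4, which encodes a cholesterol transfer protein, held 2 each. These 7 genes had 46 of the Miwi2-/- sequences and 227 of the WT sequences. Without them, the exact share was 4.24%. The shared sequences were also listed in spleen more often than the rest. Only genes with listed spleen sequences could contribute to this, and the classes were not matched for such genes. A spleen list held 16 of the 37 (43.2%, 27.1 to 60.5), while it held 6 of the 386 sequences of the Miwi2-/- liver alone (1.55%, 0.573 to 3.35) and 39 of the 3378 of the WT liver alone (1.15%, 0.822 to 1.57). Several of the 16 are variants of the same stack, as in Mbnl1, Dnmt3a and AI464131, so they are not independent and the interval is too narrow.

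Distances between 5' ends showed the same pattern on a finer scale. The nearest WT 5' position of the same gene was at 0 nt for 77 Miwi2-/- sequences, within 1 nt for 106 (25.1%), within 10 nt for 196 (46.3%) and within 100 nt for 306 (72.3%), and the median distance was 14 nt. A nearest WT start lay 1 nt upstream for 21 sequences and 1 nt downstream for 8, where ties were given to the upstream start. The 77 sequences at 0 nt came from 33 genes, led by 4933403F05Rik with 8, Alb with 7 and Fam53c with 6. The nearest WT start lay 8 nt upstream for 11 sequences over 8 genes, with 3 sequences in Scd1. It lay 3 nt downstream for as many, 11 sequences over 10 genes.

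**Figure D2:**
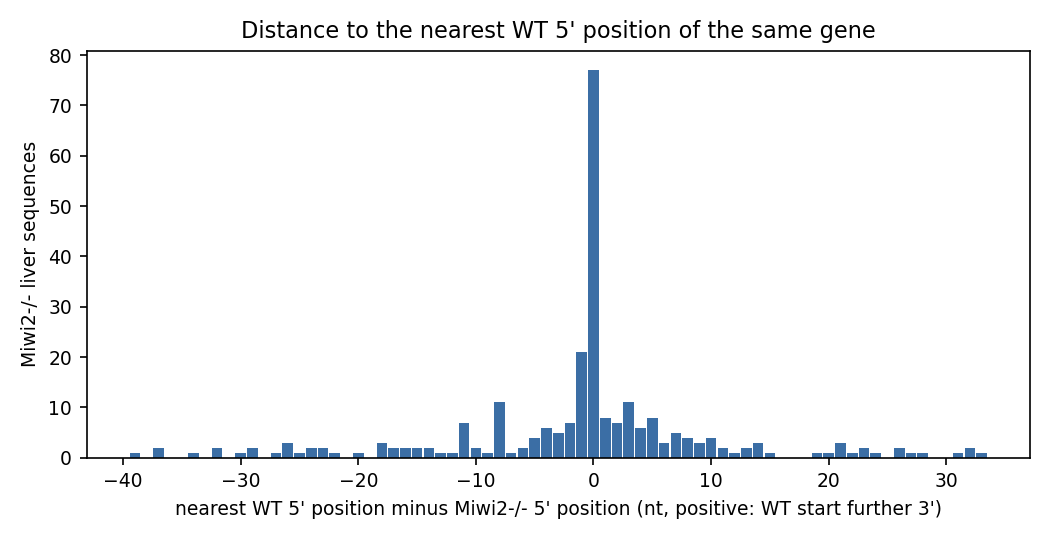
Number of Miwi2-/- liver sequences (vertical axis) by the distance from their 5' position to the nearest WT 5' position of the same gene (horizontal axis, nt), with positive values for WT starts further 3'. The bar at 0 nt holds 77 sequences, and 21 sequences had a WT start 1 nt upstream.

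WT 5' positions with several distinct sequences were found again more often. The WT liver used 3202 positions in these genes, 58 of which were used in the Miwi2-/- liver, and these were 14.5% (11.2 to 18.3) of its 400 positions. Of the 3044 positions with a single WT sequence, 32 (1.05%, 0.720 to 1.48) had a Miwi2-/- sequence. Of the 125 positions with 2 WT sequences it was 15 (12%, 6.87 to 19.0), and of the 19 positions with 3 it was 5 (26.3%, 9.15 to 51.2). Of the 14 positions with 4 or more it was 6 (42.9%, 17.7 to 71.1). The intervals of neighbouring classes overlap from 2 WT sequences upwards, while the class with a single sequence lies apart.

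**Figure D3:**
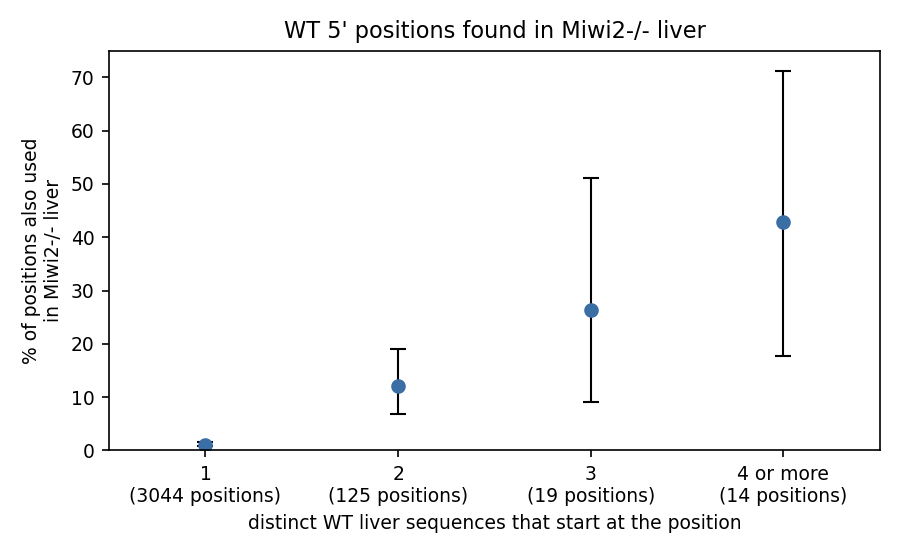
Share of WT liver 5' positions that were also used in Miwi2-/- liver (vertical axis, %) by the number of distinct WT sequences that start there (horizontal axis, with the number of positions), with exact 95% intervals. The share goes from 1.05% at positions with 1 WT sequence to 42.9% at those with 4 or more.

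Single positions show how unevenly this happened. In 4933403F05Rik, on chromosome 18, 5 WT and 7 Miwi2-/- sequences began at position 68420630, and 3 of them were the same. At position 68420594 of the same 3' UTR, 7 WT sequences and no Miwi2-/- sequence began, and at 68420592 there were 4 WT sequences and 1 Miwi2-/- sequence. In AI464131, 7 WT and 2 Miwi2-/- sequences began at 41443397, and 4 and 1 at 41443398. In Stard4, 5 WT sequences began at 33360267, with no Miwi2-/- sequence. Alb had 3 positions with 4 WT sequences and no Miwi2-/- sequence, at 90905498, 90905507 and 90905556.

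The positions of 4933403F05Rik and Fam53c came in pairs. The shared sequences of Fam53c began at 34932857 and 34932893 on chromosome 18, 36 nt apart, with 3 Miwi2-/- sequences at each, against 3 and 2 WT sequences. Their bases could pair with each other over a longest unbroken run of 9 bases. In 4933403F05Rik the paired starts were 38 nt apart, also with a longest run of 9 bases. The run was not compared with other pairs of sequences. Around the Mbnl1 stack, within 2 nt of the Miwi2-/- starts, there were 4 WT liver, 7 Miwi2-/- liver, 19 WT spleen and 7 Miwi2-/- spleen sequences. Around the Dnmt3a stack there were 3, 5, 5 and 3. Around that of AI464131 there were 11, 3, 10 and 2. These stacks thus had sequences in all 4 libraries, while the Alb stack at 90905578 to 90905581, with 11 WT and 4 Miwi2-/- liver sequences, had none in a spleen list.

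By gene, 210 of the 495 genes (42.4% of all genes tested) were in both lists and 285 (57.6%) were in the WT list alone. Among the 210 genes, 123 had a single Miwi2-/- sequence, 49 had 2, 18 had 3, and 20 had 4 or more. In 109 of them at least 1 Miwi2-/- sequence overlapped a WT sequence, and in the other 101 the genes were shared without any shared base. The median number of WT sequences was 6 in the genes of both lists and 4 in those of the WT list alone. Of the 75 genes with at least 10 WT sequences, 13 (17.3%) had no Miwi2-/- sequence, against 257 of 403 (63.8%) with 3 to 9 and 15 of 17 (88.2%) with 1 or 2. The numbers are counts per gene and not per length, so they do not rank the genes by level.

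**Figure D4:**
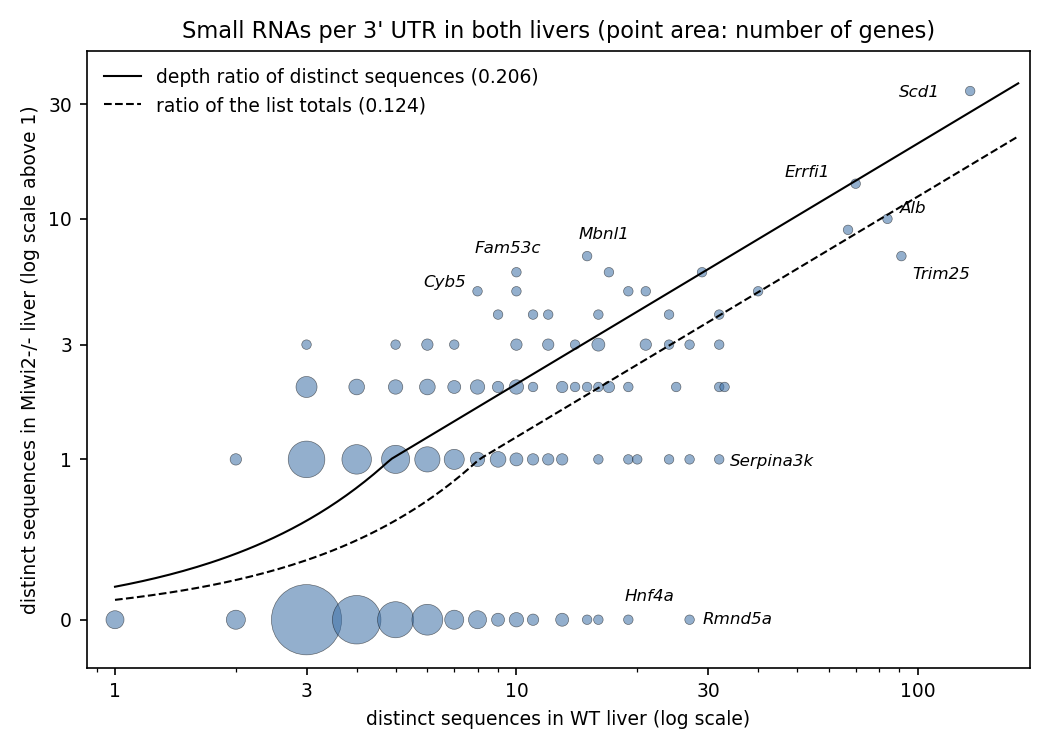
Distinct sequences per gene in WT liver (horizontal axis, log scale) and Miwi2-/- liver (vertical axis, linear from 0 to 1 and log above 1), with 495 genes and the area of a point growing with the number of genes there. The solid line is the depth ratio of 0.206 and the broken line the ratio of the list totals of 0.124. Scd1 lies above both lines and Trim25 below both, and Rmnd5a is the gene with the most WT sequences at 0.

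The gene with the most sequences in both livers was Scd1, which encodes stearoyl-CoA desaturase, the enzyme that introduces a double bond into saturated fatty acids. Its 3' UTR lies at chr19:44468941-44472411. Scd1 had 135 WT and 34 Miwi2-/- sequences, a depth-scaled ratio of 1.22 (0.814 to 1.79), and the interval lies above the 0.602 of all genes. None of the 34 was an exact WT sequence and 4 of their 32 starts were WT starts, but 30 of them overlapped a WT sequence. The listed WT sequences covered 49.9% of this 3' UTR, and the overlap was not compared with that of sequences placed at random. Errfi1 had 70 and 14 sequences, a ratio of 0.972 (0.506 to 1.74), with 1 exact sequence, 4 of 14 starts shared and 12 overlapping. Over its whole deposited cluster, which runs beyond the annotated 3' UTR, Errfi1 had 157 and 16, a ratio of 0.495 (0.276 to 0.830). Alb had 84 and 10, a ratio of 0.579 (0.268 to 1.12), with 3 exact sequences, 7 of 10 starts shared and all 10 overlapping, in a 3' UTR of 173 nt with 146 bases under WT sequences. Over its whole deposited cluster Alb had 100 and 10, a ratio of 0.486 (0.226 to 0.931).

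Trim25, which encodes a ubiquitin ligase of the antiviral response (chr11:88874858-88881607), had 91 WT and 7 Miwi2-/- sequences, a ratio of 0.374 (0.146 to 0.802). Within annotated 3' UTRs and at this depth ratio, Trim25 was 1 of 3 genes whose interval lay below 1, with Serpina3k and Rmnd5a. The interval of no gene lay there below 0.602 and of no gene above 1. Over their whole deposited clusters, the intervals of Errfi1, Alb and Ppara also lay below 1. 4933403F05Rik had 67 and 9 (0.653). Among the other genes with the most WT sequences, Mgst1, a glutathione transferase of membranes, had 40 and 5 (0.607). Stard4 had 29 and 6 (1.01). Uox, the urate oxidase, had 33 and 2 (0.295), and Mat1a, which makes S-adenosylmethionine, had 32 and 3 (0.456). Zhx3, a zinc finger and homeobox repressor, also had 32 WT sequences and had 2 in the Miwi2-/- liver (0.304). Serpina3k, a secreted serine protease inhibitor, had 32 and 1 (0.152, 0.00373 to 0.909), and that sequence began at a WT start. Close relatives of Serpina3k and Saa1 can share reads, which the unique alignment would have removed, so their counts are less certain.

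Among the genes of the WT list alone, Rmnd5a came first, which encodes a subunit of a ubiquitin ligase (chr6:71338628-71343121), and had 27 WT sequences. Hnf4a, the nuclear receptor that maintains the hepatocyte program (chr2:163392099-163398646), had 19, and Pgrmc1, a membrane protein that binds heme (chrX:34144884-34146074), had 16. Onecut2, a transcription factor of liver development, had 15. With 3 sequences taken as the limit that a count of 0 allows, a gene without Miwi2-/- sequences needs 30 WT sequences at the depth ratio to be at least 2-fold lower. Only 11 genes had that many, and each of these 11 had Miwi2-/- sequences. Against this limit Rmnd5a was at least 1.85-fold lower, which leaves out the counting error of its WT sequences. The upper end of its interval, which includes that error, was a ratio of 0.711. Both values hold for the depth ratio used here. At the ratio of reads 3.48 sequences would be expected for Rmnd5a, near the limit of 3, so its fold would be smaller. The intervals of Hnf4a, Pgrmc1 and Onecut2 reached 1.04, 1.26 and 1.35, and at the ratio of reads each would have fewer than 3 sequences, so no fold is given for them or for the other genes of the WT list alone. The next were Hal, Tacc1 and Tmbim6 with 13 WT sequences each, Trp53inp2 with 11, and Hist1h1c, a linker histone, with 10. Hist1h1c had 75 sequences in WT spleen and 32 in Miwi2-/- spleen.

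Past 2-fold of the depth-scaled level, 20 of the 495 genes (4.04%) were lower and 27 (5.45%) were higher in the Miwi2-/- liver. A count of 0 was entered as 3, so none of the 13 genes with at least 10 WT sequences and no Miwi2-/- sequence was among the 20, and Saa1 with 27 and 1 was while Rmnd5a with 27 and 0 was not. With 0 entered as 1, 33 genes were lower. By the rule, which way a gene could fall depended on its number of sequences. With 1 Miwi2-/- sequence, a gene needed at least 10 WT sequences to be lower, so genes with fewer could not be. The 20 lower genes had a median of 17.5 WT sequences, and 15 of them had 1 Miwi2-/- sequence. The 27 higher genes had at most 15 WT sequences, with a median of 4 WT and 2 Miwi2-/- sequences. The 75 genes with at least 10 WT sequences held all 20 of the lower and 3 of the higher genes. The 4.04% and 5.45% thus do not compare the directions on equal terms. With the ratio of reads as the depth ratio, 8 genes were lower and 78 higher, so the split depends on the scale. Besides those named above, the lower genes included Saa1, an acute phase protein, with 27 WT sequences and 1 Miwi2-/- sequence, and Slc38a4, an amino acid transporter, with 25 and 2.

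Among genes with at least 4 Miwi2-/- sequences, the highest depth-scaled ratios were those of Cyb5, the microsomal cytochrome b5, with 8 WT and 5 Miwi2-/- sequences (3.04, 0.782 to 10.5), Fam53c with 10 and 6 (2.92, 0.871 to 8.85) and Dnmt3a with 10 and 5 (2.43, 0.652 to 7.80). Mbnl1 followed with 15 and 7 (2.27, 0.782 to 5.91), and Gpx1, a glutathione peroxidase, with 9 and 4 (2.16, 0.486 to 7.74). These intervals include 1, and those of Cyb5, Fam53c, Dnmt3a and Mbnl1 lie above 0.602. The genes were chosen for these ratios, which are given as a description. They differed in how their sequences were placed. All 5 Miwi2-/- sequences of Dnmt3a, all 6 of Fam53c and all 7 of Mbnl1 overlapped WT sequences, and in Dnmt3a and Mbnl1 every Miwi2-/- sequence lay in the stack shown above. Cyb5 had 5 different Miwi2-/- starts, none of them a WT start. The 4 sequences of Gpx1 overlapped WT sequences without a shared start. Glul, the glutamine synthetase, had 11 and 4 (1.77), Ahsg had 17 and 6 (1.72), Aff4, a subunit of an elongation complex, had 12 and 4 (1.62), and Epas1, a hypoxia-inducible factor, had 19 and 5 (1.28).

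The genes were then read by role. Of 96 secreted plasma proteins searched for, 24 were in the WT list and 18 of these in both, with 330 WT and 42 Miwi2-/- sequences in all, a ratio of 0.618 (0.437 to 0.854). In both lists were 75% of these genes, against 42.4% of all genes. Their median was 7.5 WT sequences, against 4 over all genes, and genes with more WT sequences were more often in both lists. None was past 2-fold higher, and 3 were past 2-fold lower, against 5.45% and 4.04% of all genes. Alb, Serpina3k and Saa1 had the most WT sequences. Fgb had 24 and 3, and Fgg, another fibrinogen chain, had 16 and 4.

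Of 123 metabolic enzymes and transporters, 32 were in the WT list and 24 of these (75%) in both, against 42.4% of all genes. Their median was 10.5 WT sequences, against 4 over all genes. Together they had 552 WT and 89 Miwi2-/- sequences, a ratio of 0.783 (0.619 to 0.982). In this group 5 genes were past 2-fold lower and Cyb5 was past 2-fold higher, where 20 and 27 of all 495 genes were. Scd1 alone gave 34 of the 89. Elovl5, a fatty acid elongase, had 10 and 3, and Tdo2, which begins tryptophan breakdown, had 21 and 5. Hal, which acts on histidine, had none in the Miwi2-/- list.

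Of 58 liver transcription factors and nuclear receptors, 14 were in the WT list and 7 of these (50%) in both, against 42.4% of all genes. Their median was 7.5 WT sequences, against 4 over all genes. Together they had 152 WT and 15 Miwi2-/- sequences, a ratio of 0.480 (0.262 to 0.816). Zhx3 was past 2-fold lower, and Hnf4a and Onecut2, with 19 and 15 WT sequences, had none in the Miwi2-/- list. Cebpa, a factor of hepatocyte differentiation, had 16 and 3, Nfib had 14 and 3, and Ppara, the receptor for fatty acids, had 12 and 3, and these 3 genes lay at 0.911, 1.04 and 1.21, above 0.602 but with intervals that include it. Over its whole deposited cluster Ppara had 67 and 5, a ratio of 0.363 (0.114 to 0.889). This lies below 0.602 but with an interval that includes it. Of 65 immediate early and stress genes, 15 were in the WT list and 5 of these (33.3%) in both, against 42.4% of all genes. They had 133 WT and 19 Miwi2-/- sequences (0.694, 0.405 to 1.13). Errfi1 gave 14 of the 19. Herpud1, of the stress response of the endoplasmic reticulum, had 8 and 0, and Mt1, a metallothionein, had 3 and 2 and was past 2-fold higher. The intervals of all these groups include the 0.602 of all genes, except that of the enzymes and transporters. That exception rested on Scd1, since without it the enzymes and transporters had 417 and 55 sequences, a ratio of 0.641 (0.475 to 0.851).

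Of 51 genes of the piRNA and other small RNA pathways, 4 were in the WT list and 2 of these (50%) in both, against 42.4% of all genes. Tnrc6b had 16 and 3 sequences, Tnrc6a had 6 and 0, Eif2c1, an Argonaute, had 3 and 1, and Papd5, a terminal nucleotidyltransferase, had 3 and 0. None of these 4 was past 2-fold either way, where 4.04% of all genes were lower and 5.45% higher. Hepatocyte markers in the lists were Alb, Hnf4a and Apob (17 and 2), 3 of 9. They had 120 and 12 sequences in all, a ratio of 0.486 (0.244 to 0.881), with an interval that includes 0.602. The lists held 0 of 13 Kupffer cell, 0 of 9 endothelial, 0 of 5 cholangiocyte and 0 of 10 blood cell markers. This is a statement on the deposited clusters and not on the cells of the tissue. Of 8 stellate cell markers, Dcn (16 and 3) and Reln (6 and 1) were present, a ratio of 0.884 (0.221 to 2.60). Their part in the other results was not tested.

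**Figure D5:**
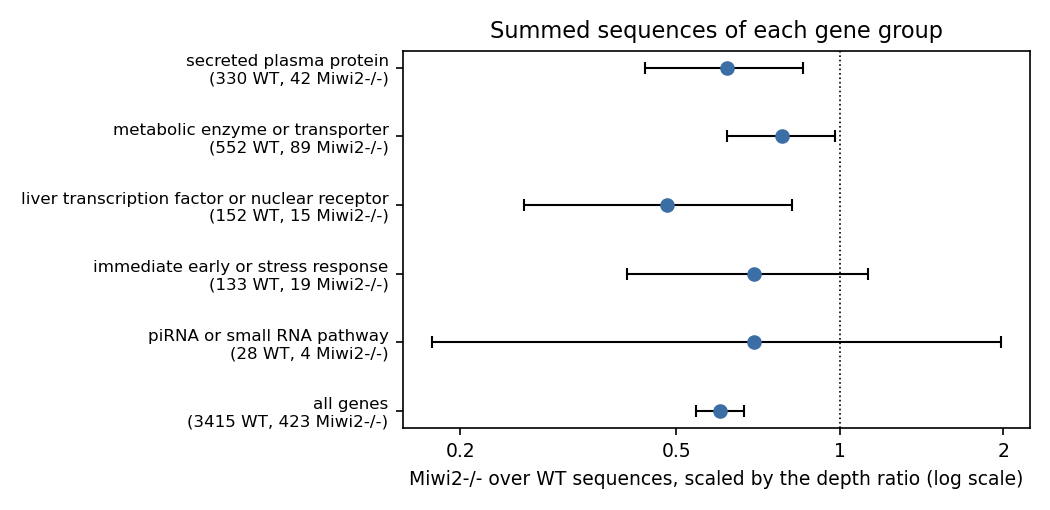
Miwi2-/- over WT sequences scaled by the depth ratio (horizontal axis, log scale) for the summed sequences of each gene group, with exact 95% intervals for counting error. All genes together lie at 0.602 and the enzymes and transporters at 0.783, and the dotted line marks 1.

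The sequences themselves differed in length between the libraries. The Miwi2-/- sequences were 23.9 nt ± 3.11 (SD over 423 sequences) and the WT sequences 25.1 nt ± 3.32 (SD over 3415 sequences) on average, and both had their peak at 23 nt. Sequences of 27 nt or longer made up 22.0% (18.1 to 26.2) of the Miwi2-/- list and 31.0% (29.5 to 32.6) of the WT list, and those of 20 nt or shorter made up 12.1% and 6.00%. The 37 sequences of both lists were the shortest class, with a mean of 23.1 nt and 5.41% (0.661 to 18.2) of 27 nt or longer. The peak lies below the range on the labels, and the part of the size selection by gel in this difference was not tested.

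Other features were close. The 5' base was A in 36.3% (31.7 to 41.0) of the Miwi2-/- sequences and 38.9% (37.3 to 40.6) of the WT sequences, and U in 36.7% (32.1 to 41.5) and 35.5% (33.9 to 37.2). A 3'-terminal A that did not match the genome ended 47.0% (42.2 to 51.9) and 44.5% (42.8 to 46.2), and 5.20% and 4.54% ended in ATC. Starts within the last 100 nt of the 3' UTR made up 16.3% (12.9 to 20.2) and 15.5% (14.3 to 16.7), and the median start was at 59.4% and 53.1% of the length of the 3' UTR. The intervals of the libraries overlap for the 5' base, the mismatched A and the last 100 nt, and none is given for the ATC end or the median start.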

How the data were processed

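The authors clipped adapters, kept 1 copy of each read sequence, discarded known structural RNAs and miRNAs by Bowtie alignment with at most 3 mismatches, aligned the rest uniquely to NCBI37/mm9 with at most 1 mismatch and kept sequences in the 3' UTR clusters of the WT tissue. The submitters' processing notes also name CASAVA 1.8, cutadapt and bedtools. The deposited lists are plain sequences, neither counts nor a score, and all of them are written in the direction of the plus strand, so the strand of an RNA was taken from its gene and antisense RNAs cannot be told apart. A deposited list of 488 WT liver cluster regions served as an alternative to GENCODE M1.

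Each sequence was aligned without gaps on both strands (Python 3.11.15, numpy 2.4.6, numba 0.67.0). In tests on simulated sequences, all with at most 1 mismatch were placed at their origin. Of the WT liver sequences 84.9% and of the Miwi2-/- liver sequences 92.7% lay in annotated 3' UTRs, and the deposited strand of the cluster differed from that of the gene for 28 of 3784 sequences. Where 3' UTRs of several genes held a sequence (24 WT and 3 Miwi2-/- sequences), the gene richest in WT liver sequences took it. Intervals are exact binomial ones (scipy 1.17.1). Coordinates are 1-based on NCBIM37, and a gene's span runs from the first to the last base of its annotated 3' UTRs. Since each sequence was listed 1 time, abundance within a library is not measured, and deeper sequencing adds ever fewer different sequences per read. The depth ratio comes from the study's supplementary read accounting and not from the deposited lists.

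The genes, lists and rules were chosen with earlier results of these data known. Named are the 12 genes with the most WT sequences, the 10 with the most and no Miwi2-/- sequence, the 10 with the highest ratio among genes with at least 4 Miwi2-/- sequences, the leading members of each list and the genes of the leading 5' positions. Slc38a4, Fgg, Elovl5, Tdo2, Nfib, Ppara, Mt1, Papd5 and Ddx3y, and the genes of the closing section, were named after their values were seen. A few genes that these rules choose are not reported here. Depth, the mismatch limit, the fold, the limit for a count of 0 and the treatment of Mir21 were varied as alternatives.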

Additional observations from a re-analysis of the deposited data

Results flagged for a closer look

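Some listed sequences were outside the comparison. In the Miwi2-/- liver list, 41 of the 560 sequences were outside annotated 3' UTRs of GENCODE M1. Outside the cluster regions deposited for the WT liver were 6 of the 560. The WT liver list held 644 of 4273 sequences outside annotated 3' UTRs, a larger share than the 41 of 560.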

How the results depend on the processing

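No paired analysis was possible because each genotype has 1 library, and no replicate could be left out. Under alternative settings, 29 values were classed as near those given and 15 as moved. Among the 29 are the lower and higher genes in the deposited cluster regions and the enzyme ratio without Scd1, although both change a reading given here. With sequences that match the genome exactly, 110 genes were in both lists, and 9 were past 2-fold lower and 47 higher. With Mir21 kept, the exact share was 22.0%. With the ratio of reads as depth, 8 genes were lower and 78 higher, and with the ratio of the list totals 6 and 107. A fold of 3 gave 8 and 12, and a limit of 1 sequence for a count of 0 gave 33 lower. In settings added after seeing the data, the 75 genes with at least 10 WT sequences gave 20 lower and 3 higher. By overlap, also such a setting, 109 genes were in both lists. Without the 7 genes with several exact sequences, a further such setting, the exact share was 4.24% and the share of 5' positions 10.5%. In the 488 deposited cluster regions, 219 had sequences of both livers, and 28 were past 2-fold lower and 24 higher, so that the balance of lower and higher turned. Depth limits the genes at 0: one with under 30 WT sequences cannot pass 2-fold lower with 3 as the limit. Without Scd1, also added later, the ratio of the enzymes and transporters was 0.641. The cause of these moves was not tested, except that fewer sequences or genes enter some settings.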

Other observations

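Of the WT sequences outside annotated 3' UTRs, all but 10 lay in deposited cluster regions, as did all but 2 of the Miwi2-/- sequences outside. At Errfi1, 87 WT sequences and 2 Miwi2-/- sequences lay outside, against 70 and 14 inside. At Ppara, the receptor for fatty acids, 53 and 2 lay outside, against 12 and 3 inside. At Alb, 16 and 0 lay outside. At Noct, a gene of rhythmic expression, 13 and 0 lay outside, and its whole cluster had 21 WT and no Miwi2-/- sequence. Car3, a carbonic anhydrase, had 11 and 3 outside, against 19 and 2 inside. The Miwi2-/- share was thus smaller outside than inside at Errfi1 and Ppara and larger at Car3. These genes were picked for having the most such WT sequences. By the study's methods, cluster ends were moved outwards where small RNAs of the tissue lay, which can favour WT counts outside. The differences were not tested.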
